A study of Mus musculus with 52 samples.

Results

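The cytosolic ribosomal protein genes were taken by symbol from a table of read counts per gene: every symbol made of Rpl or Rps, digits and at most 1 of the letters a, x, y or l, together with Rplp0, Rplp1, Rplp2 and Rpsa. This gave 79 of the 15692 genes of the table, 47 of the large subunit and 32 of the small subunit, and all 79 were expressed highly enough to be tested. The table holds messenger RNA of the frontal cortex of 52 mice, 1 library per mouse, in a design that crossed human APOE allele, diet and sex. All mice carried the APP/PS1ΔE9 transgenes, from which amyloid plaques form, and had both copies of a human APOE allele put in place of mouse Apoe by targeted replacement, so no group lacked amyloid transgenes or kept mouse Apoe. APP/E4 mice carried APOE4 and APP/E3 mice APOE3. The Western high-fat diet (HFD, D12079B) drew 40% of its calories from milk fat and corn oil, and the normal diet (ND) was the chow Prolab Isopro RMH 3000. Per the labels, feeding began when mice were 3.5 months old on average and lasted 3 months, and behaviour was tested at 14.7 months on average. Ages of single animals are not used here. APP/E4 mice comprised 7 HFD females, 7 ND females, 5 HFD males and 6 ND males, and APP/E3 mice 8 HFD females, 7 ND females, 6 HFD males and 6 ND males.

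A ribosome is built from ribosomal RNA and a fixed set of proteins, most of them present as a single copy. The small subunit reads the messenger RNA and the large subunit joins amino acids. The acidic proteins Rplp0, Rplp1 and Rplp2 form the P-stalk of the large subunit, which recruits elongation factors. Ribosomal protein messenger RNAs carry a tract of pyrimidines at their 5′ end (a TOP tract), through which the kinase mTOR controls their translation together with that of several translation factors. In neurons, ribosomes are also found in dendrites and near synapses, where proteins are made locally. Mammalian genomes hold many processed pseudogenes of these genes, which are intron-free copies of their messenger RNAs, and a short read can match both the gene and its copies.

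Total counts lay between 5.34 and 13.1 M per library, apart from APP/E3 ND male 5 with 39.4 M, and the 79 genes took between 0.205% and 0.409% of them. Levels below are in CPM, counts scaled to 1 M per library after TMM correction of library size, and differences are log2 values with their standard error (SE) from edgeR's quasi-likelihood test with Benjamini-Hochberg adjustment over all 15195 genes tested. Genes with an adjusted p under 0.05 are described as called. Every library came from its own mouse, and in bulk tissue fewer cells of a type and less RNA per cell cannot be told apart. The libraries were not alike: Csl, a relative of the citrate synthase gene, ranged over 0.0941 to 1.14 CPM in 11 libraries, all female, against 10.8 to 18.2 CPM in the other 41. These are called Csl-low and Csl-high libraries here. Csl-low libraries made up 2 of 7 APP/E4 HFD females, 2 of 7 APP/E4 ND females, 5 of 8 APP/E3 HFD females and 2 of 7 APP/E3 ND females. Markers of cortical neurons (8 genes, such as Slc17a7 and Camk2a) summed to 8234 to 12512 CPM over the 52 libraries, and markers of the neighbouring striatum were also present, as given below. The Csl-low libraries stand apart in the ribosomal protein genes. Counts of these genes in each comparison below are therefore also given for the 41 Csl-high libraries alone, where 78 of the 79 were tested. Lists of other genes were read from the fit to all 52 libraries only.

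The copies can be seen in the sequences of 3 members whose counts differed between the 2 kinds of library. Each pair gives 60 bases of the coding sequence and the same bases of a pseudogene elsewhere in the genome, from GENCODE M21, with capitals at the bases that differ. The bases run from 379 to 438 in Rps10, from 64 to 123 in Rpl13a and from 139 to 198 in Rpl37a, counted from the A of the start codon.
Rps10: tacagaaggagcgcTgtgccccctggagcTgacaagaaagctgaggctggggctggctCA
Rps10-ps2: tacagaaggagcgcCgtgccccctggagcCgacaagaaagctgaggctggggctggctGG
Rpl13a: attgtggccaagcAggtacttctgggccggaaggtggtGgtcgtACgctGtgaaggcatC
Rpl13a-ps1: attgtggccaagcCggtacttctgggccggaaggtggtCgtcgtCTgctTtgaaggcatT
Rpl37a: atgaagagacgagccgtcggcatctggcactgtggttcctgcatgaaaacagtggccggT
Gm4149: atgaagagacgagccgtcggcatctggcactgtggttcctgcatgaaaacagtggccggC
Over the whole aligned sequence, Rps10 on chromosome 17 and Rps10-ps2 on chromosome 16 differed at 5 of 496 bases, and Rpl13a on chromosome 7 and Rpl13a-ps1 on chromosome 19 at 29 of 612. Rpl37a on chromosome 1 and Gm4149 on chromosome 13 differed at 1 of 276 bases.

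A run of pyrimidines stands at some of the annotated transcription starts. The windows below hold 12 bases before and 18 bases from the annotated start on the gene's strand, from RefSeq promoters of assembly GRCm38.p6. Capitals mark a run of at least 6 C or T bases that reaches within 3 bases of the start. They are shown for Rpl28, with the smallest adjusted p of the 79 genes between the APOE alleles, and for Rplp0, whose annotated start has no such run. Also shown are Rplp2, Rps10, Rpl13a and Rpl35, called higher in females over all libraries. Of these, only Rplp2 was also called in Csl-high libraries alone.
Rpl28 (chr7:4792953-4792982, plus strand): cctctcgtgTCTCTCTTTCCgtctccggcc
Rplp2 (chr7:141447639-141447668, plus strand): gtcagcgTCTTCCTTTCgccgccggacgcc
Rps10 (chr17:27635227-27635256, minus strand): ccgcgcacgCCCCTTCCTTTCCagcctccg
Rpl13a (chr7:45128728-45128757, minus strand): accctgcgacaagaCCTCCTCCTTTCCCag
Rpl35 (chr2:39005114-39005143, minus strand): ccccgCCCTTTCCTCTTTCTCTCgaaccag
Rplp0 (chr5:115559455-115559484, plus strand): ttcgggtttcgaggaccgcctggttctcct
Of the 79 genes, 57 matched the promoter table, with 68 annotated starts. Such a run stood at 41.2% of these starts, against 16.8% of all 32851 starts in the table. On the other strand the shares were 7.35% and 18.4%. The letters CTTTCC, a stretch that such runs often hold, lay within 25 bases of 14.7% of the members' starts and 2.46% of all starts on the gene's strand, and of 1.47% and 2.25% on the other. Rpl37 and Rpl37a, which are among the genes with the largest differences below, have no such run at their annotated starts. Rps2, called higher in females below also in Csl-high libraries alone, has none either. A match is a description of these windows only.

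Levels differed widely between the 79 genes although their proteins are mostly made in equal numbers. Per kilobase of messenger RNA, the highest mean levels over the 52 libraries were those of Rplp1 (375 CPM per kb), Rps15 (362 CPM per kb), a small subunit protein of the decoding region, and Rpl8 (253 CPM per kb), a large subunit protein near the peptidyl transferase centre. The lowest were those of Rps13 (1.47 CPM per kb), Rpl11 (1.47 CPM per kb), a large subunit protein that also binds Mdm2, and Rps16 (1.70 CPM per kb). Lengths are those of 1 annotated transcript per gene, and these levels depend on which transcript is taken. That of Rps16 has 1109 bases, of which 438 are coding. Not scaled for length, Rpl4 had a median of 2929 counts per library, while Rps13 and Rpl38 had 7 counts each. In 18 genes the median was under 30 counts, so single-library values of these carry large counting error.

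The low levels went with shared sequence. Of the 76 genes with an annotated coding transcript, 71 had at least 1 pseudogene of 95% identity or more over 90% of the coding sequence, with a median of 5 and a highest number of 55 for Rpl21. Rps3, Rps27l, Rplp2 and Rpl8 were among those with none. In the median gene 56.5% of all 50-base windows of the messenger RNA occurred exactly in another annotated transcript. The 8 genes with under 25% of windows shared had a median level of 85.2 CPM per kb, the 43 genes between 25% and 75% had 33.5 CPM per kb, and the 25 genes over 75% had 8.40 CPM per kb. The windows also depend on the transcript taken. That of Rps20, with 7.22% of windows shared, has 3706 bases, of which 357 are coding. Across the 76 genes Spearman's rho between level and windows shared was −0.41, given as a description, since all values come from the same libraries and from transcripts that share sequence. How the authors counted reads with several matches is not given in the sources used here. Levels of genes with many copies, and differences in them, are therefore uncertain.

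**Figure D1:**
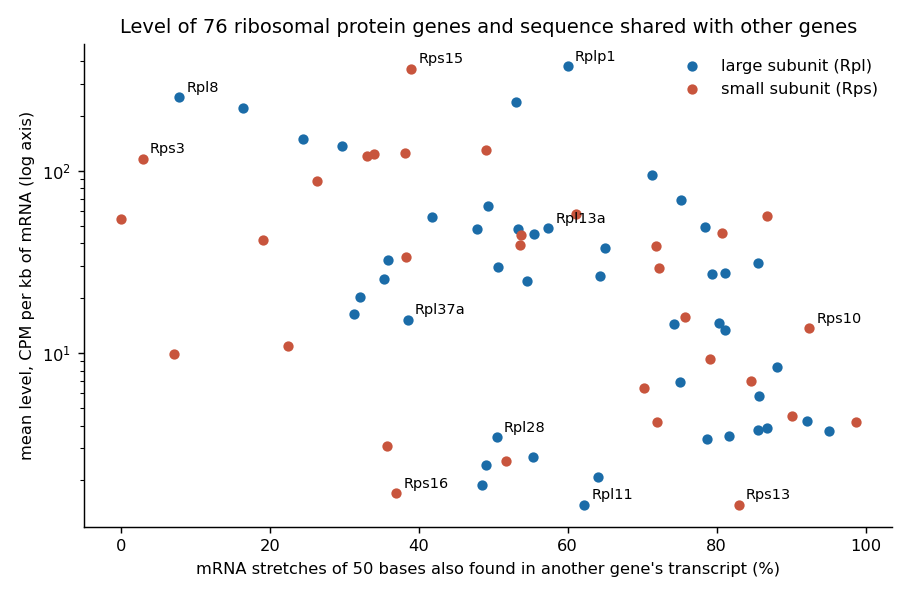
Mean level of each ribosomal protein gene over 52 libraries (TMM-scaled CPM per kilobase of messenger RNA, log axis) against the percentage of its 50-base windows found in other transcripts. Points are the 76 genes with a coding transcript; genes with few shared windows lie high (median 85.2 CPM per kb under 25%) and those over 75% lie low (8.40 CPM per kb).

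The Csl-low females had more counts of many ribosomal protein genes than the Csl-high females. This comparison is a description with no test, since the libraries were divided by a count in the same table. Of the 79 genes, 22 (27.8%) were higher in every one of the 11 Csl-low females than in every one of the 18 Csl-high females, against 0.737% of all genes tested. Another 2 were lower in every one, against 0.941% of all genes, and 55 overlapped. The median ratio of group medians was 1.18, and 13 genes had a ratio over 2.

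Rps10, a small subunit protein near the messenger RNA entry side, had the highest ratio, 7.07. Its lowest, median and highest values were 17.9, 19.8 and 24.9 CPM in Csl-low females, against 1.90, 2.79 and 3.902 CPM in Csl-high females and 1.49, 3.33 and 5.96 CPM in males. The Csl-low females thus stood apart, while Csl-high females and males overlapped. The large subunit protein genes Rpl35, Rpl37 and Rpl37a showed the same order. Rpl35 lay between 7.73 and 11.02 CPM in Csl-low females, against 1.13 to 3.38 CPM in Csl-high females and 0.65 to 3.74 CPM in males. Rpl37 lay between 33.2 and 42.1 CPM in Csl-low females, against 5.85 to 9.96 CPM in Csl-high females and 4.27 to 10.98 CPM in males. Rpl37a, whose copy differs by 1 base above, lay between 18.7 and 28.4 CPM in Csl-low females, against 3.26 to 5.83 CPM in Csl-high females and 3.07 to 5.99 CPM in males. In all 3 the Csl-low females stood apart from the other libraries. Rpl13a, which is also known as a translational silencer of inflammatory messenger RNAs once it is released from the ribosome, had a ratio of 3.57.

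**Figure D2:**
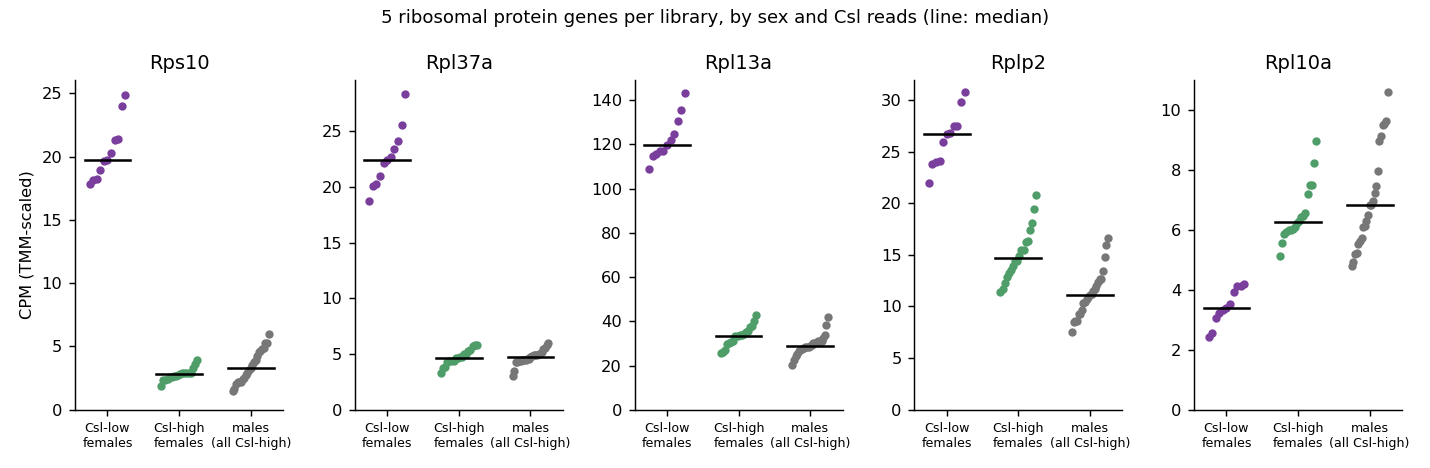
Level (TMM-scaled CPM) of Rps10, Rpl37a, Rpl13a, Rplp2 and Rpl10a in Csl-low females (n = 11), Csl-high females (n = 18) and males (n = 23), with 1 point per library and a line at the median. Rps10 lies between 17.9 and 24.9 CPM in Csl-low females and at or below 5.96 CPM in all other libraries.

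Other members went the other way or did not separate. Rpl32l, a copy of Rpl32 annotated as protein coding in RefSeq, had 1.04, 1.48 and 2.64 CPM as lowest, median and highest values in Csl-low females, against 10.99, 14.2 and 18.8 CPM in Csl-high females. Rpl10a, a protein of the L1 stalk of the large subunit, had 2.43, 3.40 and 4.18 CPM in Csl-low females, against 5.13, 6.26 and 8.95 CPM in Csl-high females. The ratios of Rps28, Rps12 and Rpl6l were 0.62, 0.78 and 0.84. Rpsa, a small subunit protein also known as a laminin receptor, had medians of 68.3 CPM in Csl-low females and 71.7 CPM in Csl-high females. Rps6, the protein that S6 kinase phosphorylates, had medians of 5.47 CPM in Csl-low and 5.69 CPM in Csl-high females. Rps27a, which is made as a fusion with ubiquitin, had medians of 2.28 CPM in Csl-low and 2.61 CPM in Csl-high females. In these 3 genes the groups overlapped over most of their range.

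The table also lists pseudogenes of these families by name. Of 21 such entries, 5 were lower in every Csl-low female than in every Csl-high female, against 0.941% of all genes tested. Another 16 overlapped, and 0 were higher, against 0.737% of all genes tested. Rps3a3, a further copy listed outside the symbol pattern, lay between 1.90 and 5.13 CPM in Csl-low females, against 13.6 to 20.3 CPM in Csl-high females. Rpl22l1, a paralog of Rpl22, was higher in every Csl-low female (22.1 to 30.2 CPM) than in every Csl-high female (12.3 to 19.1 CPM). Fau, a fusion gene that encodes Rps30, overlapped between the groups.

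The size of the difference was set beside the number of copies. The median ratio was 1.16 in the 8 genes with under 25% of windows shared, 1.30 in the 43 genes between, and 1.08 in the 25 genes over 75%. Spearman's rho across the 76 genes was −0.18 with windows shared and −0.35 with the number of pseudogenes, again a description over shared libraries. Tissue markers moved with the Csl classes too. The summed level of 9 striatal markers had a median of 429 CPM in Csl-low females, 1491 CPM in Csl-high females and 1727 CPM in males, and that of 6 olfactory bulb markers 14.4 CPM in Csl-low females, 98.0 CPM in Csl-high females and 78.8 CPM in males. The part of dissection in the ribosomal protein values was not tested.

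**Figure D3:**
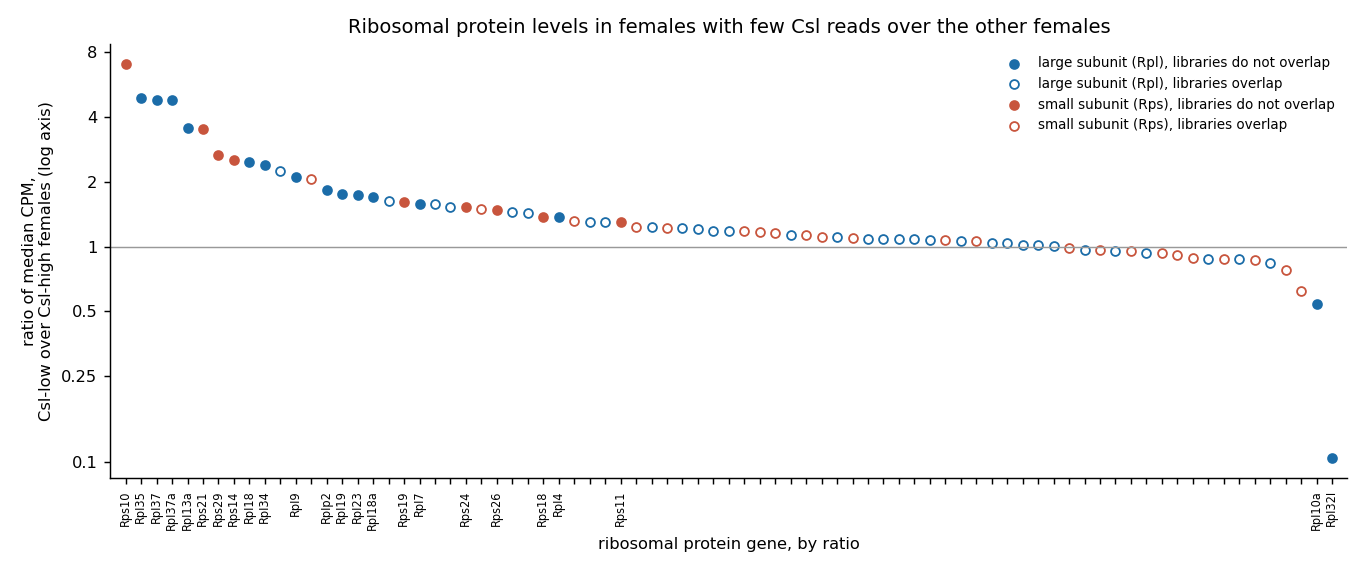
Ratio of the median level in Csl-low females (n = 11) to that in Csl-high females (n = 18), log axis, for each of the 79 genes, with filled points and names where the libraries of the classes do not overlap. Ratios run up to 7.07 in Rps10, 61 of 79 are above 1, and the lowest are those of Rpl10a and Rpl32l.

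Between females and males, with genotype and diet averaged, the test called 27 of the 79 genes, 34.2% against a background of 4.42% of all genes. Of these, 26 were higher (32.9%, against 2.91%) and 1, Rpl10a, was lower (against 1.51%). Over all 79 genes 64 were above 0, with a median log2 difference of 0.14 against 0.00 over all genes. The genes with large differences were those of the Csl-low females, and without these 11 libraries 4 of 78 genes were called: Rplp2, Rpl36, Rps2 and Rplp1, all higher in females. That is 5.13%, against 5.18% of the 15222 genes then tested, a share no larger than the background.

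The P-stalk genes Rplp2 and Rplp1 were among these 4. Rplp2 had 11.4, 17.4 and 30.8 CPM as lowest, median and highest values in females, against 7.498, 11.1 and 16.6 CPM in males. Both classes of female library lay above the male median, the Csl-high females at 11.4, 14.7 and 20.8 CPM. The log2 difference of Rplp2 was 0.77 ± 0.11 (SE, adjusted p = 2.98e-06) over all libraries and 0.43 over Csl-high libraries alone. Rplp1 had 161, 198 and 246 CPM in females, against 117, 169 and 244 CPM in males, with overlap over most of the range. Its difference was 0.23 ± 0.05 over all libraries and 0.24 over Csl-high libraries alone. Rplp0, which anchors both proteins to the ribosome, did not pass (log2 difference 0.16, adjusted p = 0.0804).

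Among small subunit genes, Rps2 had 5.25, 9.92 and 20.1 CPM in females, against 4.5997, 7.86 and 11.8 CPM in males. Its log2 difference was 0.44 ± 0.10 over all libraries and 0.47 over Csl-high libraries alone. Rps10 averaged 9.48 ± 8.82 CPM in females (SD, n = 29) and 3.46 ± 1.30 CPM in males (SD, n = 23), a log2 difference of 1.39 ± 0.33 (adjusted p = 0.00834). In Csl-high libraries alone the difference of Rps10 turned to −0.33, so its direction rests on the 11 Csl-low females. Rps21 was higher by 0.996 ± 0.211 and Rps27l, a paralog of Rps27 that p53 induces, by 0.27 ± 0.07. The remaining small subunit genes called higher, without a call in Csl-high libraries alone, were Rps9, Rps14, Rps19, Rps20, Rps24 and Rps26.

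Among large subunit genes, Rpl36 had 2.63, 6.29 and 10.9 CPM in females, against 2.32, 3.74 and 6.23 CPM in males. The log2 difference of Rpl36 was 0.71 ± 0.12 over all libraries and 0.49 over Csl-high libraries alone. It has 7 pseudogenes of 95% identity or more, 81.1% of windows shared and a median of 42.5 counts. Rpl37a (1.25 ± 0.25), Rpl37 (1.23 ± 0.25), Rpl13a (1.16 ± 0.21) and Rpl35 (1.06 ± 0.26) had the largest differences, and none was called in Csl-high libraries alone, where Rpl37a stood at −0.010 and Rpl35 at −0.12. Rpl34 and Rpl18 were higher by 0.73 ± 0.15 and 0.67 ± 0.15. Rpl10a was the gene called lower. Its call, at −0.41 ± 0.12 (adjusted p = 0.0346), was lost in 9 of the 52 fits that left out 1 library.

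Titles add a second split. All 29 females and 9 males have a sex letter in the library title and 14 males do not, and what this marks is not given in the sources used here. With title style as a term, 1 of the 79 genes, Rplp2, was called (log2 difference 0.82), 1.27% against 0.118% of all genes. With both title style and Csl class as terms it was again Rplp2 alone (0.47), against 0.211% of all genes. Beyond the ribosomal proteins, several genes of translation were called, to be read against the background of 2.91% higher and 1.51% lower. These calls come from the fit to all libraries, Csl-low females included, with no term for title style. Csl-high libraries alone were not looked at for them. Of 34 translation factor genes 5 were called higher and 1 lower, among them the elongation factor gene Eef2 at 0.11 and the initiation factor gene Eif3m at 0.49. Of 20 other genes whose messenger RNAs are known TOP mRNAs 5 were higher and 1 lower, among them Naca, of the nascent chain complex, at 0.43, and Hnrnpa1 at −0.19. Eef2 and Pabpc1, the poly(A)-binding protein gene, were called higher and are counted in both lists. Of 33 ribosome assembly genes 2 were higher (Mrto4 and Npm1), of 21 genes of mTOR control 1 was higher (Akt1s1, 0.24) and 1 lower (Rictor, −0.14), and of 76 mitochondrial ribosomal protein genes 8 were higher. Single markers of other cells were called higher: Ttr of the choroid plexus by 3.35, the astrocyte gene Gfap by 0.71 and the microglial gene C1qa by 0.32. Above 0 lay 5 of 7 choroid plexus markers (1 called), 5 of 6 astrocyte markers (1 called) and 6 of 6 microglial markers (2 called). Of 9 striatal markers 0 lay above 0. The part of all these markers in the ribosomal protein values was not tested.

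Setting APP/E4 against APP/E3, with diet and sex averaged, asks whether the APOE allele goes with a change in these genes. As a set they were balanced: 38 of 79 were higher and 41 lower, and the median log2 difference was −0.01. Large subunit genes were higher in 28 and lower in 19 cases (median 0.02), small subunit genes in 10 and 22 (median −0.06). The subunits were not tested against each other. Of the 79, 4 were called, 5.06% against a background of 6.79% of all genes, a share no larger than the background. The smallest adjusted p was that of Rpl28, a large subunit protein found in animals and plants but not in budding yeast.

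Rpl28 had 0.56, 1.72 and 2.83 CPM as lowest, median and highest values in APP/E4, against 2.07, 3.39 and 6.48 CPM in APP/E3. The 18 lowest of all 52 libraries were APP/E4. Among ND mice of either sex every APP/E4 library lay below every APP/E3 library, and among HFD mice the groups overlapped slightly. Means in APP/E4 were 1.74 ± 0.80 CPM in HFD females (SD, n = 7), 1.66 ± 0.46 CPM in ND females (SD, n = 7), 1.54 ± 0.54 CPM in HFD males (SD, n = 5) and 1.89 ± 0.65 CPM in ND males (SD, n = 6). In APP/E3 the means were 3.16 ± 0.57 CPM in HFD females (SD, n = 8), 4.19 ± 0.85 CPM in ND females (SD, n = 7), 2.98 ± 0.76 CPM in HFD males (SD, n = 6) and 3.91 ± 1.28 CPM in ND males (SD, n = 6). All 4 matched pairs thus had the same direction, with a log2 difference of −1.05 ± 0.13 (adjusted p = 3.2e-08 by edgeR's quasi-likelihood test).

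**Figure D4:**
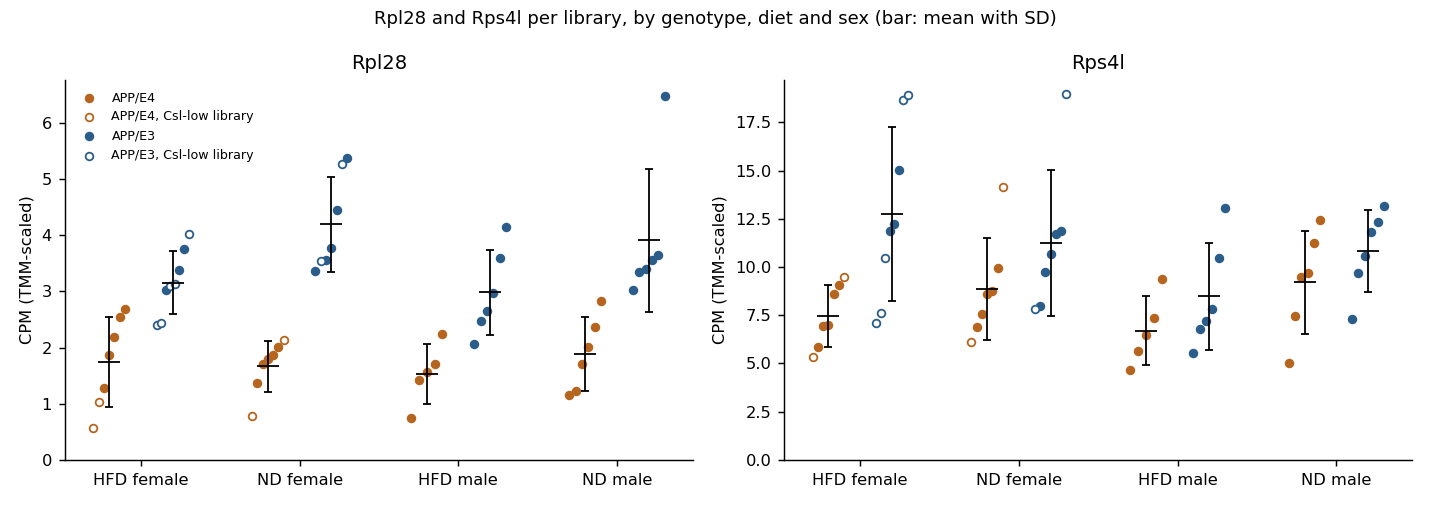
Level (TMM-scaled CPM) of Rpl28 at the left and Rps4l at the right in each library of the 8 groups, with bars for the mean and SD and open points for Csl-low libraries. Group means of Rpl28 lie between 1.54 and 1.89 CPM in APP/E4 and between 2.98 and 4.19 CPM in APP/E3.

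The Rpl28 difference was present in both Csl classes. Among Csl-low females the mean was 1.13 CPM in 4 APP/E4 and 3.42 CPM in 7 APP/E3 libraries, and among Csl-high libraries 1.82 CPM in 21 APP/E4 and 3.603 CPM in 20 APP/E3 libraries. Leaving out each library in turn gave −1.093 to −0.9999. The level rests on few reads, with a median of 23.5 counts per library and a lowest of 6, and 50.5% of its windows occur in other transcripts, among them 4 pseudogenes. Rpl28 lies on chromosome 7, as does Apoe, the replaced gene. Of the 6 genes of the table on each side of it, only Nat14 was called, at −0.17 ± 0.05 (adjusted p = 0.0127). Zfp628 stood at −0.17 ± 0.06 and did not pass (adjusted p = 0.0564). The largest difference was that of Cox6b2 at −0.24, which did not pass (adjusted p = 0.336). Genes further along the chromosome were not looked at here.

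A further 3 genes passed. Rps4l, a transcribed pseudogene related to Rps4x, had 4.66, 7.57 and 14.2 CPM in APP/E4, against 5.54, 10.6 and 19.0 CPM in APP/E3, with wide overlap and a log2 difference of −0.42 ± 0.11 (adjusted p = 0.0158). Rps4x, the X-linked gene of a small subunit protein, went the other way, with 26.1, 29.7 and 36.9 CPM in APP/E4, against 21.6, 26.6 and 31.5 CPM in APP/E3 (0.15 ± 0.04, adjusted p = 0.0179). Rpl6l, annotated as a pseudogene, had 14.5, 18.4 and 23.1 CPM in APP/E4, against 11.8, 15.5 and 24.4 CPM in APP/E3 (0.19 ± 0.06, adjusted p = 0.0447). For both Rps4x and Rpl6l the 11 lowest libraries were APP/E3. The call of Rpl6l was lost in 28 of the 52 fits that left out 1 library, and in Csl-high libraries alone only Rpl28 and Rps4l of 78 genes were called, 2.56% against 6.98% of all genes. Rps6 came next and did not pass (0.19 ± 0.07, adjusted p = 0.0989).

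Other genes that work with the ribosome were read from the same test, against the same background of 6.79%. Of 34 translation factor genes 4 were called, all higher, such as Eif4g2, a relative of the scaffold of cap-dependent initiation, at 0.15. Of 20 other TOP genes 0 were called by edgeR, with 1 higher and 1 lower at an unadjusted p under 0.05. Of 33 assembly genes 3 were higher and 1 lower, with Ncl, the nucleolar protein nucleolin, at 0.23 (adjusted p = 4.46e-07). Of 21 genes of mTOR control and the stress kinases 4 were higher and 1 lower, among them the transcription factor gene Atf4 (0.38), the kinase gene Eif2ak2 (0.33) and Ddit3 (−0.18). Of 76 mitochondrial ribosomal protein genes 3 were higher and 1 lower, a share below the background. Rpl7l1, a paralog of Rpl7 that works in assembly, lies outside the symbol pattern and was higher by 0.16 (adjusted p = 0.0222). All 6 oligodendrocyte markers were above 0 in APP/E4, with Mag called at 0.38, and their summed level had a median of 3220 CPM in APP/E4 and 2698 CPM in APP/E3. Their part in these values was not tested.

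Diet averaged over genotype and sex called none of the 79 genes in edgeR, DESeq2 or limma-voom. The background was 0% of all genes in edgeR and limma-voom and 0.00658% in DESeq2. At an unadjusted p under 0.05, 2 genes were lower in HFD, against 9.20% of all genes in either direction. They were Rpl7a (−0.10), with 31 pseudogenes of 95% identity or more, and Rpl28 (−0.27). The number lower was 1 to 6 over fits that left out 1 library, the highest without APP/E4 ND male 5, and it was 0 in Csl-high libraries alone, against 4.31% of all genes. In the authors' deposited table, 1 of the 79 genes had a p-value under 0.05 for diet, the smallest being 0.0380, and the direction of that table's coefficients is not stated. Within single combinations of genotype and sex the genes lay most to one side of 0 in APP/E3 males. In each of these 4 combinations and in the interactions, DESeq2 and limma-voom also called none of the 79 genes, so every difference of theirs given from here on is one that did not pass the adjusted threshold.

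In APP/E3 males, 76 of the 79 genes were lower with HFD than with ND, and the median log2 difference was −0.24 against −0.01 over all genes. None was called (background 0%). At an unadjusted p under 0.05, 24 genes (30.4%) were lower and 0 higher, against 7.38% of all genes lower and 6.21% higher. The genes vary together between libraries, as given below, so the 24 are not independent of each other. Rplp1 had 117, 155 and 162 CPM as lowest, median and highest values in HFD males, against 169, 189 and 233 CPM in ND males. The 6 HFD libraries all lay below the 6 ND libraries, with a log2 difference of −0.35 ± 0.10. Rps20 had 22.9, 29.5 and 32.4 CPM in HFD males, against 33.4, 36.1 and 46.4 CPM in ND males (−0.35 ± 0.10). Rpl7a and Rpl41, the shortest protein of the ribosome, were at −0.29 ± 0.09 and −0.30 ± 0.11. The 8 genes with under 25% of windows shared were all below 0, and so were the 25 genes with over 75% shared.

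The summed level of the 79 genes in these males was 2067, 2667 and 2813 CPM (lowest, median and highest) with HFD and 2782, 2932 and 3623 CPM with ND. A single library at each end stood apart from its group, HFD male 4 at 2067 CPM and ND male 2 at 3623 CPM. Without ND male 2 the number of genes lower at an unadjusted p under 0.05 was 11, against 3.48% of all genes, and without HFD male 4 it was likewise 11, against 4.83%. Over all fits that left out 1 library it lay between 11 and 25, and the median log2 difference between −0.27 and −0.18. With the fit made on Csl-high libraries alone, which leaves these males as they are, 38 genes were lower, against 8.45% of all genes, and the median was again −0.24. Among neighbouring gene groups, 3 of 20 other TOP genes were above 0, with a median of −0.11 and 3 lower at an unadjusted p under 0.05. Of 76 mitochondrial ribosomal protein genes 10 were above 0, with a median of −0.15 and 19 lower at an unadjusted p under 0.05. Medians were −0.04 in translation factors, 0.03 in assembly genes and 0.08 in genes of mTOR control, and edgeR called no gene in any of these lists. All 9 striatal markers and all 6 oligodendrocyte markers were above 0 and 0 of 6 microglial markers were. The striatal sum had a median of 1864.9 CPM with HFD (792 to 2377 CPM) and 1275 CPM with ND (271 to 2642 CPM), and its part in these values was not tested.

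**Figure D5:**
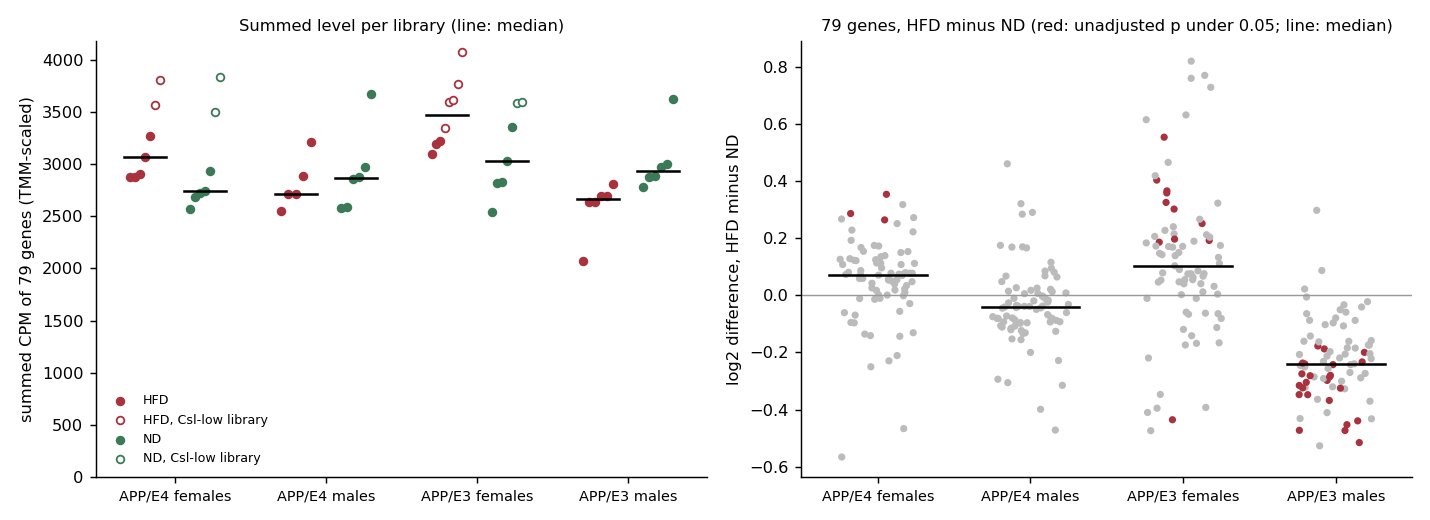
Summed level of the 79 genes (TMM-scaled CPM) per library at the left, with HFD beside ND and open points for Csl-low libraries, and log2 difference (HFD minus ND) of each gene at the right, in red at an unadjusted p under 0.05, with lines at the medians. In APP/E3 males 76 of 79 genes lie below 0 (median −0.24), while the medians elsewhere lie between −0.04 and 0.10.

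In APP/E3 females the median was 0.10 and none was called, against 0.0263% of all genes. At an unadjusted p under 0.05, 10 genes were higher and 1 lower, against 2.38% of all genes higher and 2.32% lower, and Csl-low libraries made up 5 of 8 HFD and 2 of 7 ND females. The number higher was 0 without HFD female 1, without ND female 2 or without ND female 5, and 24 without ND female 4. HFD female 1 and ND female 4 are Csl-low libraries. Shares of all genes in these fits are not given here, so these counts show only how far the number moves. Rpl23, a large subunit protein that also binds Mdm2, had 18.6, 28.8 and 35.7 CPM in HFD females, against 13.97, 17.5 and 31.9 CPM in ND females (0.40 ± 0.19). Rpl35a (0.37 ± 0.17) and Rps24 (0.30 ± 0.13), both known disease genes of Diamond-Blackfan anaemia, were on the same side of 0. In Csl-high libraries alone 5 genes were higher and 0 lower, against 3.81% and 4.22% of all genes, with a median of 0.14. Markers of other cells differed in the same females. Of 6 blood markers 0 were above 0 (median −4.04), and 3, all haemoglobin genes, were called lower with HFD. All 7 choroid plexus markers were above 0 (median 1.37, with 5 at an unadjusted p under 0.05), as were 8 of 9 striatal markers (0.19), and 0 of 6 oligodendrocyte markers were (−0.20). Their part was not tested.

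In APP/E4 mice few of the genes reached an unadjusted p under 0.05. In APP/E4 males 0 were called and 0 had an unadjusted p under 0.05 in edgeR, against 3.65% of all genes, and the median was −0.04. In Csl-high libraries alone 1 was higher and 1 lower, against 2.42% and 2.36% of all genes. In APP/E4 females 0 were called, and 3 were higher at an unadjusted p under 0.05, against 4.80% of all genes. Over fits that left out 1 library 2 to 7 were higher, the highest without ND female 6, against 5.14% of all genes, and in Csl-high libraries alone 8, against 4.50%. Rplp0 had 79.6, 89.4 and 94.1 CPM in HFD females, against 44.2, 71.5 and 84.9 CPM in ND females (0.35 ± 0.11). Rpl13 was at 0.26 ± 0.13. In these females all 7 choroid plexus markers (median 1.43), all 6 olfactory bulb markers (1.26) and all 6 microglial markers (0.21) were above 0 with HFD, with 4 of the choroid plexus and 4 of the microglial markers at an unadjusted p under 0.05. None of 9 striatal markers (−0.84) and none of 6 oligodendrocyte markers (−0.15) were, and their part was not tested.

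The differences between these diet responses were tested as interactions. The diet response of females minus that of males had a median of 0.23 over the 79 genes, and none was called (background 0%). At an unadjusted p under 0.05, 27 genes (34.2%) had a more positive response in females, against 4.46% of all genes, and 23 to 34 over fits that left out 1 library. In Csl-high libraries alone the number was 39, against 6.79% of all genes. The genes vary together between libraries, as given below, so these counts are not of independent genes. Median diet responses were −0.24 in APP/E3 males, −0.04 in APP/E4 males, 0.10 in APP/E3 females and 0.07 in APP/E4 females. APP/E3 HFD male 4 and APP/E3 ND male 2, which stood apart above, enter this contrast. In the same interaction all 7 choroid plexus markers (median 2.13), all 6 olfactory bulb markers (1.10) and all 6 microglial markers (0.12) were above 0. Of the 6 blood markers 0 were (−2.50, with 5 lower at an unadjusted p under 0.05), of 6 oligodendrocyte markers 0 (−0.19) and of 9 striatal markers 0 (−0.24). Their part in the ribosomal protein values was not tested. The diet response of APP/E4 minus that of APP/E3 gave 5 genes more positive at an unadjusted p under 0.05, against 5.47% of all genes, and none called. The number was 1 to 7 over fits that left out 1 library, 1 without APP/E4 HFD male 3 (against 3.28% of all genes) and 3 without APP/E4 ND male 1, APP/E4 HFD male 1 or APP/E4 ND male 5. It was 5 in Csl-high libraries alone, against 6.54%. The sex difference in APP/E4 minus that in APP/E3 gave 0 calls, against 0.00658% of all genes, and 3 genes more negative at an unadjusted p under 0.05, against 3.03%: Rpl38 (−1.02 ± 0.43), Rps2 (−0.45 ± 0.19) and Rps20. This number was 2 to 7 over fits that left out 1 library, with 5 to 7 in 8 of them and 7 without APP/E4 ND female 6, and 9 in Csl-high libraries alone, against 4.33% of all genes.

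The genes also varied together from library to library. This was read over the 41 Csl-high libraries and the 45 genes with a median of 100 counts or more. The mean of each group was first taken off the log2 levels, so differences between groups do not enter. The median pairwise Pearson correlation was 0.60, and 97.2% of 990 pairs were positive. This is a description, since the pairs share libraries and scaling. Rpl32, Rps3 and Rpl8 followed the others most closely, with mean correlations of 0.70, 0.70 and 0.69, and Rps15a (0.08), Rpl15 (0.12) and Rplp0 (0.22) least. Rplp0 is in wide use as a reference gene in quantitative PCR. In summed level, the highest APP/E3 HFD male (2813 CPM) lay below every HFD female of either genotype, and all other pairs of groups overlapped. Medians were 3068 CPM in APP/E4 HFD females, 2743 CPM in APP/E4 ND females, 2719 CPM in APP/E4 HFD males, 2866 CPM in APP/E4 ND males, 3474 CPM in APP/E3 HFD females, 3029 CPM in APP/E3 ND females, 2667 CPM in APP/E3 HFD males and 2932 CPM in APP/E3 ND males.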

How the data were processed

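The authors deposited raw counts of reads per gene for 52 libraries. The submitters' processing notes name Subread, featureCounts, limma, edgeR 3.14.0 and build mm9. No source used here gives the order and settings of these tools, the annotation, the strand setting or the treatment of reads with several matches. The same deposited table holds the authors' log2 coefficient and p-value for diet. RNA had an integrity number above 8 and libraries were Illumina mRNA libraries, per the labels' protocols. Groups came from genotype, diet and sex labels. Replicate numbers follow accession order and pair nothing. Spreadsheet software had turned 24 symbols into dates, which were restored by gene ID.

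Counts were tested with edgeR 4.0.16 in R 4.3.3: filterByExpr over the 8 groups left 15195 genes, TMM factors, 1 mean per group over all 52 libraries, a robust quasi-likelihood F test, and Benjamini-Hochberg adjustment over all genes tested. The fit was tested on simulated data. Alternatives used DESeq2 1.42.0, limma-voom 3.58.1, RLE factors, TMM factors without these 79 genes, no filter, Csl class or title style as terms, Csl-high libraries alone, and each library left out. Levels are TMM-scaled CPM. A level of 3 counts was taken as the floor, for counting error only. Over 146 pairs of libraries within a group the chi-square per degree of freedom was at least 3.06, so no library was a duplicate. Copies were sought with BLAST 2.17.0 among GENCODE M21 transcripts, and starts came from RefSeq GRCm38.p6, with no coordinates taken from the mm9 counts.

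The members, lists and Csl classes were chosen with earlier results of these data known. Named were the called members (at most the 10 with the largest difference in each direction) or, with fewer than 5 calls, those with the smallest p, with a set always named, the extremes of level and Csl ratio, and copies outside the pattern. A few items are not reported here.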

Additional observations from a re-analysis of the deposited data

Results flagged for a closer look

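The summed level of the 79 genes and 15 named genes were looked at for single libraries that lie far from their group, in each of the 8 groups, which makes 128 looks. The rule marks about 1 in 20 groups of independent, normally distributed values, and 13 were marked. The looks share libraries and the summed level holds the named genes, so the 13 cannot be set against that rate. The summed level was 3623 CPM in APP/E3 ND male 2 (nearest other library 2999.7 CPM), 2067 CPM in APP/E3 HFD male 4 (nearest 2635 CPM) and 3675 CPM in APP/E4 ND male 6 (nearest 2977 CPM). APP/E3 ND male 2 was also high in Rpl37a (5.99 CPM), Rpl13a (42.1 CPM), Rpl28 (6.48 CPM) and Rplp1 (233 CPM), and APP/E3 HFD male 4 was low in Rplp1 (117 CPM, nearest 152 CPM). Rplp0 stood at 63.6 CPM in APP/E3 ND male 6, below its group, and at 75.8 CPM in APP/E3 HFD male 5, above its group. Rps6 was high in APP/E3 ND female 1 (7.11 CPM), Rps4l in APP/E3 ND female 7 (19.0 CPM, nearest 11.9 CPM) and Rpl6l in APP/E4 ND male 6 (23.1 CPM, nearest 19.5 CPM).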

How the results depend on the processing

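The counts of called genes in APP/E4 against APP/E3 (4) and in females against males (27) stayed within 1.5 times under DESeq2, limma-voom, RLE factors, TMM factors without the 79 genes and no filter. For genotype, 7 were called with Csl class and title style as terms (11.1% of all genes) and 2 in Csl-high libraries alone (6.98% of all genes). For sex, 4 were called with Csl class as a term (4.31% of all genes), 1 with title style (0.118%), 1 with both (0.211%) and 4 in Csl-high libraries alone (5.18%). Leaving out each library gave 3 to 5 calls for genotype (5.18% to 8.84% of all genes), 23 to 32 for sex (2.82% to 6.99%), and 0 to 0 for every diet contrast and interaction. Of the 26 genes called higher in females, 5 turned negative with Csl class as a term, 0 with title style, 14 with both and 5 in Csl-high libraries alone. Among them were Rps10 (−0.32 with Csl class as a term, −0.33 in Csl-high libraries alone), Rpl35 (−0.13 and −0.12), Rpl37a (−0.11 with both terms, −0.010 in Csl-high libraries alone), and with both terms Rpl37 (−0.030), Rps21 (−0.045) and Rpl18 (−0.075). The Csl-low libraries are all female, so Csl class and sex are partly confounded, and the cause of these changes was not tested. No paired analysis was possible because replicate numbers only name the libraries in accession order. Depth limits the 18 genes with a median under 30 counts, Rpl28 among them.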

Other observations

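A few single values stood out and were chosen after they were seen. Rpl21, the member with the most pseudogenes, had 13 counts (1.502 CPM) in APP/E3 ND male 6, while the other 51 libraries lay between 20.2 and 59.1 CPM. Rpl29, a large subunit protein, averaged 30.9 ± 4.88 CPM in APP/E4 (SD, n = 25) and 26.6 ± 8.80 CPM in APP/E3 (SD, n = 27), and the 9 lowest of all libraries, at 14.1 to 19.2 CPM, were APP/E3, with the next at 21.2 CPM. Its genotype difference did not pass (adjusted p = 0.217 by edgeR). Rpl38 had 0 counts in APP/E4 ND male 5, where its floor of 3 counts applies.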
